A study of Mus musculus with 8 samples.

Results

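The IL-2 and IL-4 receptor genes and their response genes comprise 10 genes, Il2ra, Il2rb, Il2rg, Il4ra, Il21r, Stat6, Il4i1, Nfil3, Batf and Zbtb32. They were taken as every probe set of a mouse Affymetrix expression array whose annotated symbol is one of these names, which gave 16 of 45037 non-control probe sets. Of the 16, 15 carry 1 symbol and 1419192_at carries both Il4i1b and Il4i1, so its signal is assigned to neither. RefSeq gives Il4i1 and Nup62-il4i1 among the synonyms of Il4i1b. Il2rg has no probe set listed in the annotation used. The own probe set of Il4i1, 1437612_at, lay at the floor of 32 on all 8 arrays, as did 1447330_at of Zbtb32. These probe sets and 1417546_at of Il2rb lay under the filter on dim signals, so 13 of the 16 were tested, 12 of them with 1 symbol, which cover 8 of the 10 genes.

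All arrays hold RNA of cells from AID-GFP reporter mice; AID is the deaminase that acts on antibody genes in class switching. The 4 groups of 2 arrays are BCR-ABL1 bone marrow cells, GFP-negative or GFP-positive, and splenic B cells, again GFP-negative or GFP-positive, which had been given LPS together with IL-4. BCR-ABL1 is the fusion tyrosine kinase of Philadelphia chromosome-positive leukaemia. The labels used here do not state how it was introduced, the strain and age of the mice, or the dose and time of stimulation. Nor do they say whether the replicates were separate mice or separate cultures, so p-values measure only the spread between these arrays, which may be technical. The BCR-ABL1 cells received no stated cytokine, whereas both splenic groups received IL-4.

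IL-4 binds the chain encoded by Il4ra, which pairs with the common gamma chain encoded by Il2rg and signals through JAK1 and JAK3 to the transcription factor STAT6. The same gamma chain serves the receptors for IL-2, where it joins the chains of Il2ra and Il2rb, and for IL-21, where it joins that of Il21r. In B cells IL-4 with LPS drives switching to IgG1 and IgE. Among the response genes, Nfil3 and Batf encode leucine zipper factors, both known to act in class switching, and BATF binds DNA with JUN proteins beside IRF4. Zbtb32 encodes a zinc finger repressor, and Il4i1 encodes a secreted amino acid oxidase named for its induction by IL-4. In bone marrow, CD25, the product of Il2ra, marks pre-B cells.

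Promoters of Il2ra, Il4ra and Nfil3 are shown as examples. Il2ra rose with GFP in both sources, Il4ra differed between the sources in both GFP fractions, and Nfil3 rose 12.7-fold with GFP in the spleen. Zbtb32, whose promoters are not shown, rose more there (14.1-fold). RefSeq promoters of build GRCm38.p6, spanning 250 bases before to 50 after each start, matched 9 of the 10 genes with 10 promoters. In Il2ra capitals mark the letters GGGAANNCC, an NF-kB-like run; in Il4ra they mark ATGNAAAT, which takes in the octamer ATGCAAAT; in Nfil3 they mark CG dinucleotides.
Il2ra, chr2:11642542-11642841, plus strand: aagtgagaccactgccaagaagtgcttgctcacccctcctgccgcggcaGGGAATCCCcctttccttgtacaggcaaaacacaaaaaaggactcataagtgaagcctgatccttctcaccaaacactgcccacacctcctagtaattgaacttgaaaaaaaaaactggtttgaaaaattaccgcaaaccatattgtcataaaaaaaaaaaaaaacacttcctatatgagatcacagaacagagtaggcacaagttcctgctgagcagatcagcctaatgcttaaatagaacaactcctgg
Il4ra, chr7:125552021-125552320, plus strand: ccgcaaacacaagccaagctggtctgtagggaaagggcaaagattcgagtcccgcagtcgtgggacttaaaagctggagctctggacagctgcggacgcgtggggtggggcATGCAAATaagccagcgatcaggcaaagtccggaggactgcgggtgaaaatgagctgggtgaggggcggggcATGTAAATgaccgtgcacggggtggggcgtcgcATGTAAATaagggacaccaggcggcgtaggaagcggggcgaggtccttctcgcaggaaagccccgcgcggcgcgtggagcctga
Nfil3, chr13:52980990-52981289, minus strand: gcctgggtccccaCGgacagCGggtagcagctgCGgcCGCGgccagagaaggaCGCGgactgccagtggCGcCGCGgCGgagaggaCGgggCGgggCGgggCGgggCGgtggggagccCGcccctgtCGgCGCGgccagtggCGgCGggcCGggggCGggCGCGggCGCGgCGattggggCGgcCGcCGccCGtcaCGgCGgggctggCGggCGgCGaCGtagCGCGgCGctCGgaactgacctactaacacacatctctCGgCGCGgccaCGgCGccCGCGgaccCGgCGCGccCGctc

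The Il2ra window held 1 match to GGGAANNCC, read on both strands, and none of the other 9 promoters did, against 5.83% of 32841 RefSeq promoters. The Il4ra window held 3 matches to ATGNAAAT (ATGCAAAT, ATGTAAAT and ATGTAAAT), a number reached by 0.0457% of all promoters, while 5.68% held at least 1. These motifs were picked after the sequences were read. The STAT6 motif, in which 4 bases part TTC from GAA, and the motif TTCNNNGAA of STAT5 and other STATs were in 0 of the 10 promoters, against 6.95% and 8.3% of all. TGANTCA, the AP-1 motif, was in none of the 10 either, against 7.81% of all. A missing match says only that these letters are not in these 300 bases. The promoters differed widely in base composition, from a GC content of 42.7% in Il2ra to 81.7% in Nfil3, which has 54 CG dinucleotides. The median of all promoters was 52.7% with 7 such dinucleotides.

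The labelled cell types were checked against marker lists, summed over probe sets. Pre-B markers (7 of 8 measured) summed to between 41220 and 42270 on the BCR-ABL1 arrays and to between 2221 and 4022 on the splenic arrays. Pan-B markers (9 of 10 measured) summed to 37690 to 39390 on the BCR-ABL1 arrays. They summed to 59870 to 61160 on the splenic GFP-negative and 46480 to 47960 on the splenic GFP-positive arrays. Of the pre-B genes Igll1 went the other way, with GFP-negative and GFP-positive means of 598.4 and 537.5 in BCR-ABL1 and 1997 and 846.7 in splenic cells. The pan-B gene Ms4a1 had means of 509.7 and 38.7 in BCR-ABL1 and 8008 and 7376 in splenic cells. The splenic GFP-negative arrays departed from their label in the markers of other cell types. T and NK cell markers (11 of 13 measured) summed there to between 16950 and 18560, against 802.9 to 812.9 on the splenic GFP-positive arrays and 1559 to 1828 on the BCR-ABL1 arrays. Myeloid markers (12 of 12 measured) summed to between 78470 and 80040, against 622.3 to 627.2 in the GFP-positive fraction, where Camp, Ngp, Csf1r, Itgam and Elane were at the floor. Dendritic markers (5 of 5 measured) summed to 1682 to 1793 and 2373 to 2445 in the splenic GFP-negative and GFP-positive fractions and to 229.8 to 298.8 on the BCR-ABL1 arrays, and erythroid markers (3 of 4 measured) stayed between 96 and 148.9 in all groups. Most of the dendritic sum in splenic GFP-positive cells was Flt3, with a mean of 1899 against 150.3 in GFP-negative cells. Itgax instead went from 998.6 to the floor and Zbtb46 from 477.5 to 377.5. The splenic GFP-negative arrays also had higher 3' to 5' ratios of control Gapdh (1.88 and 1.93, against 1.4 to 1.48 elsewhere). In such bulk RNA fewer cells of a type and less RNA per cell cannot be told apart. The part of these other cells and of RNA quality in the splenic GFP contrast and in the contrast of the GFP-negative fractions was not tested.

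Il2ra was the receptor gene that rose with the reporter in BCR-ABL1 cells. Its brighter probe set, 1420692_at, read 1242 and 1305 on the GFP-negative arrays and 3877 and 3864 on the GFP-positive arrays, in units of signal intensity after quantile normalization. In the spleen it read 641.2 and 607 in GFP-negative and 1858 and 1716 in GFP-positive cells. The groups did not overlap, and BCR-ABL1 GFP-positive cells held the highest level, followed by splenic GFP-positive, BCR-ABL1 GFP-negative and splenic GFP-negative cells. The log2 difference of GFP-positive from GFP-negative was 1.60 ± 0.072 (SE) in BCR-ABL1 cells (3.04-fold, adjusted p = 5.44e-05) and 1.52 ± 0.072 in the spleen (2.86-fold, adjusted p = 5.02e-07; limma, 2 arrays against 2). Each of the 20 alternatives kept both calls for this probe set, and the splenic difference was 2.05 on the deposited scale and 2.21 with equal medians.

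The dimmer Il2ra probe set, 1420691_at, read 212.2 and 225 against 619.4 and 562.8 in BCR-ABL1 cells, and 73.61 and 38.25 against 489.8 and 518 in the spleen. It was thus higher in GFP-positive cells of both sources as well, by 1.43 ± 0.27 (adjusted p = 0.0343) and by 3.25 ± 0.27 (adjusted p = 1.02e-05). The BCR-ABL1 call for it was lost without any 1 of the 4 BCR-ABL1 arrays (adjusted p from 0.192 to 0.274), without splenic GFP-positive replicate 1 or 2 (0.0898 and 0.0945), without the filter (0.198) and without the variance trend (0.0663). The probe sets disagreed on whether the GFP effect differed between the sources. The difference, spleen minus BCR-ABL1, was -0.09 (95% interval -0.32 to 0.15) for the brighter and 1.81 (0.93 to 2.69) for the dimmer one. The value of the dimmer one rests on splenic GFP-negative signals near the floor and ran from 1.32 to 2.34 over the alternatives. For the brighter one the difference turned positive and passed on the deposited scale (0.50) and with arrays shifted to equal medians (0.64). The median of all tested probe sets was 0.36 and 0.50 in these settings. The mean of the Il2ra probe sets had 0.86 and passed too.

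Il2rb, which encodes the signalling beta chain of the IL-2 and IL-15 receptors, was a splenic transcript. Probe set 1448759_at was at the floor on both BCR-ABL1 GFP-negative arrays and read 34.58 and 34.24 on the GFP-positive ones. It read 599.5 and 493.9 in splenic GFP-negative and 342.4 and 311.5 in splenic GFP-positive cells, so that the sources did not overlap. BCR-ABL1 minus spleen was -3.25 among GFP-positive arrays, a value that rests on BCR-ABL1 signals under the filter value and near the floor (-2.35 with a floor of 64), and the splenic level was at least 17-fold higher among GFP-negative arrays. Within the spleen it was lower in GFP-positive cells by -0.74 ± 0.14 (adjusted p = 0.00148), a call lost on the deposited scale (-0.22, adjusted p = 0.234) and with equal medians (-0.06, adjusted p = 0.757). T and NK cells, whose markers were high in the splenic GFP-negative arrays, also carry this receptor chain, and their part in the fall was not tested. The untested Il2rb probe set 1417546_at, which lay on the floor in every BCR-ABL1 array, read 70.5 and 43.91 in splenic GFP-negative and 96.15 and 101.8 in splenic GFP-positive cells, an order opposite to that of 1448759_at.

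Il4ra, which encodes the chain that binds IL-4, was higher in the spleen than in BCR-ABL1 cells. Probe set 1421034_a_at read 362.6 and 417.5 in BCR-ABL1 GFP-negative, 375.2 and 349.8 in BCR-ABL1 GFP-positive, 2105 and 2123 in splenic GFP-negative and 4048 and 4223 in splenic GFP-positive cells. The BCR-ABL1 groups overlapped, and both lay under every splenic array. Its level was 11.4-fold higher in the spleen among GFP-positive arrays (-3.51 ± 0.092, adjusted p = 5.26e-08) and 5.43-fold higher among GFP-negative arrays (-2.44 ± 0.092, adjusted p = 1.25e-07). In the spleen it rose with GFP by 0.97 ± 0.092 (adjusted p = 2.31e-05), while in BCR-ABL1 cells the difference was -0.10 (95% interval -0.32 to 0.11, adjusted p = 0.865).

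The other Il4ra probe sets were also higher in GFP-positive than in GFP-negative splenic cells. 1423996_a_at read 239.3 and 202.8 against 904.8 and 792.1 in the spleen (1.94 ± 0.16) and between 89.42 and 110.2 in BCR-ABL1 cells. 1447858_x_at was dimmer, at 65.1 and 98 against 199.3 and 163.6 in the spleen (1.18 ± 0.21) and between 42.6 and 49.2 in BCR-ABL1 cells. The splenic rise therefore ran from 1.96-fold to 3.84-fold over the 3 probe sets. Between the sources both gave smaller gaps than the brightest one, 8.93-fold and 3.94-fold among GFP-positive and 2.18-fold and 1.66-fold among GFP-negative arrays, with 1447858_x_at under the filter value in BCR-ABL1 cells. Its GFP-negative call was lost without BCR-ABL1 GFP-negative replicate 2 (adjusted p = 0.0612), without a filter (0.0517) and with a floor of 64 (0.17).

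Il21r, which encodes the IL-21 binding chain, differed less between the groups. Probe set 1450456_at read 957 and 998.5, and 870.7 and 996.2, in BCR-ABL1 GFP-negative and GFP-positive cells, which overlapped (difference -0.07, 95% interval -0.31 to 0.17). It read 1443 and 1706 in splenic GFP-negative and 2388 and 2552 in splenic GFP-positive cells, a rise of 0.65 ± 0.10 (1.57-fold, adjusted p = 0.000532). Among GFP-positive arrays the splenic level was 2.65-fold higher (-1.41 ± 0.10, adjusted p = 1.78e-05). Among GFP-negative arrays it was 1.61-fold higher (-0.68 ± 0.10), a call lost with equal medians (-0.16, adjusted p = 0.166).

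Stat6, the transcription factor downstream of Il4ra, did not follow the receptor chain within the spleen. Probe set 1426353_at read 1727 and 1717 in BCR-ABL1 GFP-negative, 1871 and 1802 in BCR-ABL1 GFP-positive, 3980 and 3947 in splenic GFP-negative and 2853 and 2810 in splenic GFP-positive cells. It was thus higher in every splenic than in every BCR-ABL1 array, by 1.54-fold among GFP-positive (-0.62 ± 0.051) and 2.3-fold among GFP-negative arrays (-1.20 ± 0.051). With GFP it fell by 0.49 ± 0.051 on the log2 scale in the spleen (adjusted p = 4.28e-05). In BCR-ABL1 cells the difference was 0.09 (95% interval -0.03 to 0.21). Its dimmer probe set, 1421708_a_at, read 967.3 and 1133 against 642.5 and 641 in the spleen (-0.71 ± 0.11), and between 342 and 369.2 in BCR-ABL1 cells.

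The splenic fall of Stat6 depended on how the arrays were scaled. With equal medians 1426353_at had -0.13 (adjusted p = 0.0856), and 1421708_a_at had -0.20 on the deposited scale (adjusted p = 0.108) and -0.04 with equal medians (adjusted p = 0.761). The median of all tested probe sets in this contrast also moved, from 0.17 to 0.35 on the deposited scale and to 0.51 with equal medians. Relative to that median, 1426353_at stood at -0.66, -0.64 and -0.64 under the 3 scalings and Il2rb at -0.91, -0.57 and -0.57.

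**Figure D1:**
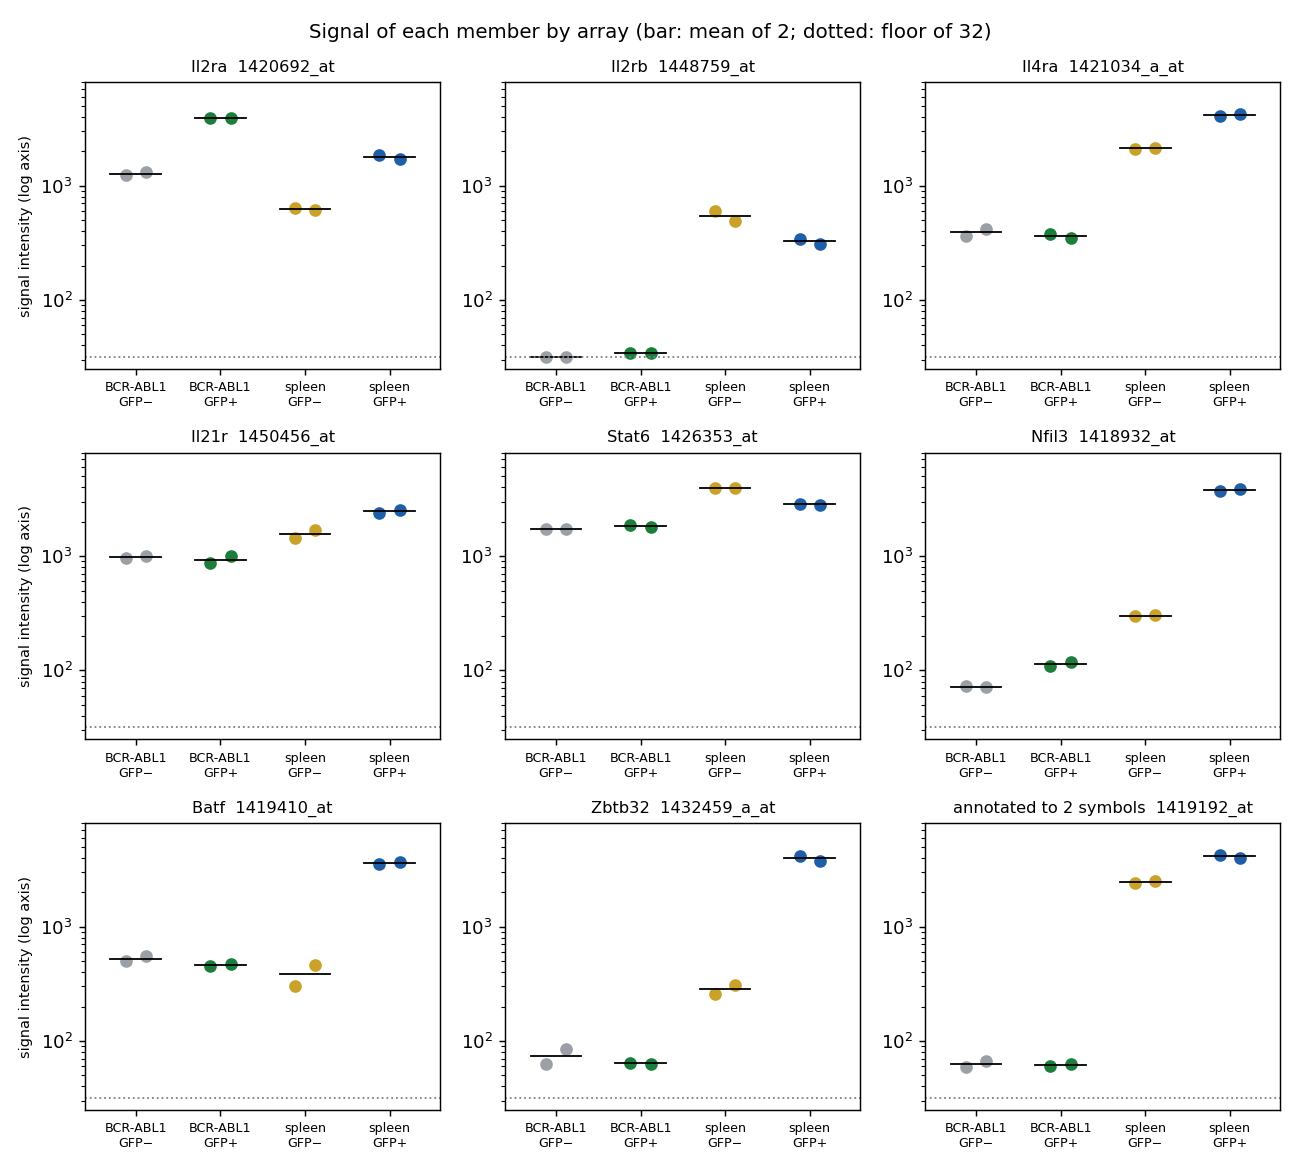
Signal intensity (log axis) of the brightest tested probe set of each of the 8 genes, and of the probe set with 2 symbols, on the 2 arrays of each group, with their mean as a bar and the floor of 32 dotted. Nfil3, Batf and Zbtb32 range from 3506 to 4184 on the splenic GFP-positive arrays and reach at most 548.7 on the others, whereas Il2ra is highest on the BCR-ABL1 GFP-positive arrays.

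Nfil3, Batf and Zbtb32, the 3 transcription factor genes of the response, had their highest levels in splenic GFP-positive cells. Nfil3 (1418932_at) read 298.5 and 303.8 in splenic GFP-negative and 3741 and 3898 in splenic GFP-positive cells, a rise of 3.66 ± 0.11 (12.7-fold, adjusted p = 6.19e-08). Batf (1419410_at) read 301.3 and 461.5 against 3506 and 3676, a rise of 3.27 ± 0.18 (9.63-fold, adjusted p = 1.09e-06). Zbtb32 (1432459_a_at) read 259.1 and 305.9 against 4184 and 3745, a rise of 3.81 ± 0.17 (14.1-fold, adjusted p = 3.86e-07). For all 3 the splenic groups lay far apart, and each of the 20 alternatives kept the call. With equal medians the rises were 4.26, 3.90 and 4.39.

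In BCR-ABL1 cells these genes parted. Nfil3 read 72.7 and 71.46 in GFP-negative and 109.3 and 118.9 in GFP-positive cells, a rise of 0.66 ± 0.11 (1.58-fold, adjusted p = 0.0209) at a low signal. That call was lost without any 1 of the 4 BCR-ABL1 arrays (adjusted p from 0.125 to 0.242), without splenic GFP-positive replicate 1 or 2 (0.0692 and 0.0672), with the 4 BCR-ABL1 arrays alone (0.066) and with the replicate number as a block (0.0504). Batf read 501.1 and 548.7 against 452.8 and 469.4 (difference -0.19, 95% interval -0.60 to 0.23, adjusted p = 0.894). Zbtb32 read 63.43 and 85.65 against 64.1 and 63.43 (difference -0.21, 95% interval -0.60 to 0.19, adjusted p = 0.834), with overlapping groups.

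Between the sources, Zbtb32 was 62.1-fold and Nfil3 33.5-fold higher in splenic than in BCR-ABL1 cells among GFP-positive arrays, and Batf 7.79-fold. Among GFP-negative arrays Zbtb32 was 3.82-fold and Nfil3 4.18-fold higher in the spleen. Batf went the other way there, higher in BCR-ABL1 cells by 0.49 ± 0.18 (1.41-fold, adjusted p = 0.0341), and by 1.03 on the deposited scale and 1.14 with equal medians. This call was lost without splenic GFP-negative replicate 1, which held the lowest Batf value (0.18, adjusted p = 0.0838), without any 1 of the 4 BCR-ABL1 arrays, and without splenic GFP-positive replicate 1 or 2 (adjusted p from 0.0541 to 0.15). The lowest Batf level was in splenic GFP-negative cells, whose arrays overlapped those of BCR-ABL1 GFP-positive cells.

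Probe set 1419192_at, shared by Il4i1b and Il4i1, had the widest gap between the sources among the 13 tested member probe sets. It read between 59.31 and 67.16 on the 4 BCR-ABL1 arrays, 2396 and 2481 in splenic GFP-negative and 4246 and 4012 in splenic GFP-positive cells. The splenic level was 66.9-fold higher among GFP-positive (-6.06 ± 0.11) and 38.6-fold higher among GFP-negative arrays (-5.27 ± 0.11). Within the spleen it rose with GFP by 0.76 ± 0.11 (1.69-fold, adjusted p = 0.000278), and in BCR-ABL1 cells it differed by -0.03 (95% interval -0.29 to 0.22). Its gaps between the sources rest on BCR-ABL1 signals near the floor. Among GFP-positive arrays the gap ran from -6.22 to -5.47 over the alternatives, beside -6.1 to -5.38 for Zbtb32.

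**Figure D2:**
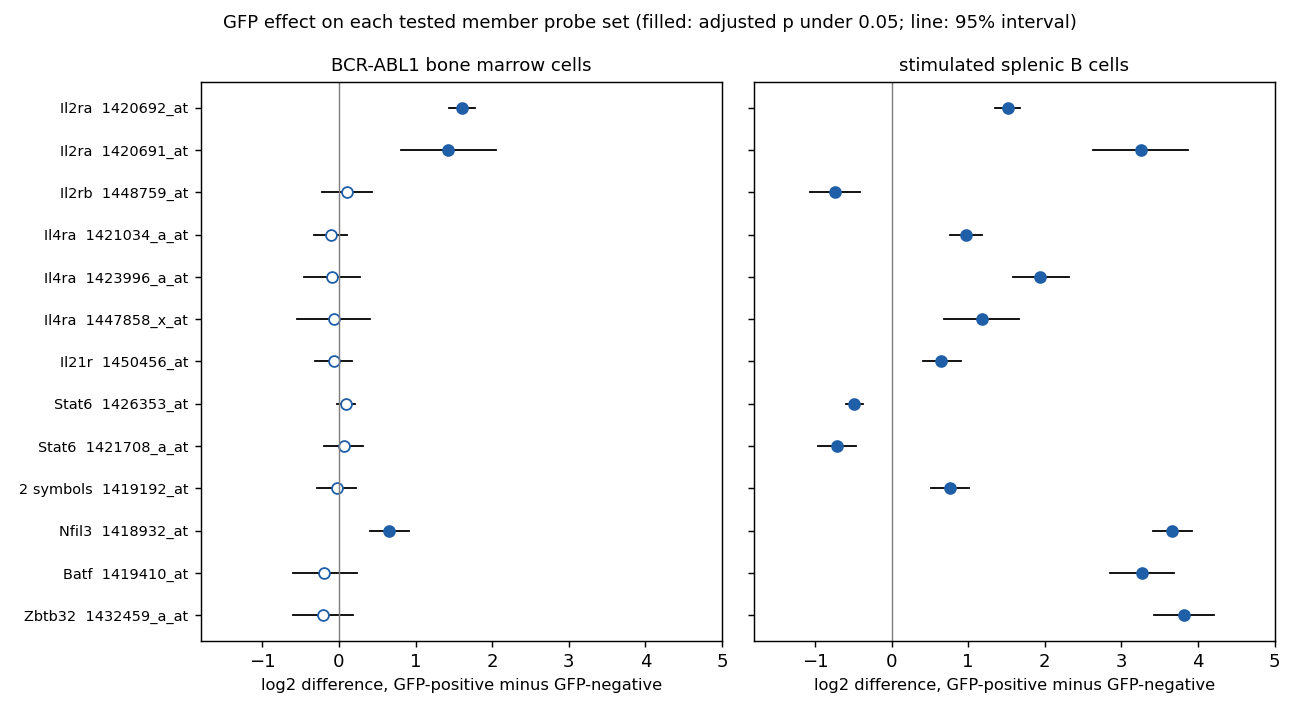
Log2 difference of GFP-positive from GFP-negative arrays with its 95% interval for the 13 tested probe sets, BCR-ABL1 cells on the left and splenic cells on the right, with filled points where the adjusted p was under 0.05. In BCR-ABL1 cells the filled points are both Il2ra probe sets and Nfil3, and in the spleen all points are filled, with Il2rb and Stat6 to the left of 0.

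Counted by the brightest tested probe set, 2 of 8 genes were higher in GFP-positive BCR-ABL1 cells (Il2ra and Nfil3) and 0 lower by limma, where 2.80% of 27022 tested probe sets were called, 1.57% as higher and 1.23% as lower. At an unadjusted p under 0.05 the lower count was also 0, and 11.5% of all probe sets passed. Without each BCR-ABL1 array in turn 197 to 262 probe sets were called in place of 756, and 503 and 502 without splenic GFP-positive replicates 1 and 2. In the spleen 6 of 8 were higher and 2 lower (Il2rb and Stat6), with 78.2% of all probe sets called, 44.9% as higher and 33.3% as lower, so that a call alone says little about these genes and the size of the difference more. Their median difference was 1.24 in the spleen, beside 0.17 for all tested probe sets, and 0.01 in BCR-ABL1 cells, beside 0. Higher probe sets made up 57.4% of all splenic calls, against 65.2% on the deposited scale and 71.1% with equal medians. The percentages of calls are over all probe sets, while the members are counted by gene. With the brightest probe set of each gene as the unit, 656 of 12223 genes were called in BCR-ABL1 cells and 9426 in the spleen. Il2rb 1448759_at and Il4ra 1447858_x_at passed the filter through their splenic arrays, their BCR-ABL1 means being under it.

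The GFP effect itself differed between the sources for 7 of 8 genes, with 69.8% of all probe sets called (40.3% higher, 29.5% lower). The splenic effect exceeded the BCR-ABL1 effect for Zbtb32 by 4.02 ± 0.24, Batf by 3.45 ± 0.25, Nfil3 by 3.0 ± 0.16, Il4ra by 1.07 ± 0.13 and Il21r by 0.72 ± 0.15, and was below it for Il2rb (-0.84 ± 0.20) and Stat6 (-0.58 ± 0.072). The value for Il2rb rests on BCR-ABL1 arrays at or near the floor and was lost on the deposited scale (-0.22) and with equal medians (-0.06). The remaining gene was Il2ra. Among the pathway genes described below, the splenic effect was greater for Cish (3.47 ± 0.12), Jak3 (2.17 ± 0.18) and Socs3 (2.10 ± 0.13). It was lower for Il7r (-7.33), Gata3 (-3.30) and Socs5 (-2.88 ± 0.16). The values of Il7r and Gata3 rest on splenic GFP-positive signals at or near the floor. Gata3 was also at the floor on every BCR-ABL1 array, so its value is the splenic difference alone. Higher probe sets made up 57.7% of all calls here, against 66.1% on the deposited scale and 71.6% with equal medians. Counted by the brightest probe set of each gene, 8439 of 12223 genes were called.

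Between the sources, 1 of 8 genes (Il2ra, by 1.12 ± 0.072) was higher in BCR-ABL1 cells and 7 were lower among GFP-positive arrays, where 44.0% of probe sets were called (22.4% higher, 21.6% lower). The splenic GFP-positive arrays in this comparison held T and NK, and myeloid, marker sums below those of the BCR-ABL1 arrays, and a dendritic sum, mostly of Flt3, above theirs. Among GFP-negative arrays 2 were higher (Il2ra, by 1.03 ± 0.072 or 1.69 with equal medians, and Batf) and 6 lower, with 78.9% called (45.5% higher, 33.4% lower). Higher probe sets made up 57.6% of those calls, against 66.4% on the deposited scale and 70.6% with equal medians. By the brightest probe set of each gene, 6149 of 12223 genes were called among GFP-positive and 9589 among GFP-negative arrays. Both comparisons share arrays with the GFP contrasts. Il2rb, counted as lower in both, had BCR-ABL1 means under the filter value. It passed the filter only through its splenic arrays, so its direction was tied to the filter. The dimmer Il2ra probe set had 0.23 (95% interval -0.39 to 0.85) among GFP-positive arrays.

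A list of 63 other pathway genes gave the wider view. It had 52 tested genes, while 10 fell below the filter and for 1 there was no own probe set. In BCR-ABL1 cells 7 of 52 rose with GFP and 1 fell (median 0.04), of which Pim2 and Bcl2 kept the call in all 20 alternatives while without 1 array 2 to 7 genes rose, and in the spleen 20 rose and 15 fell (median 0.09). Over all probe sets 2.80% were called in the first contrast and 78.2% in the second. Counted by gene, as the list is, calls numbered 656 and 9426 of 12223. Among GFP-positive arrays 20 were higher and 20 lower in BCR-ABL1 cells than in the spleen, and among GFP-negative arrays 17 and 28, where 44.0% and 78.9% of all probe sets were called. The counts by gene were 6149 and 9589 of 12223. The ligand genes Il2, Il4, Il7, Il9, Il13 and Il21 and the receptor genes Il9r and Il13ra1 lay under the filter.

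Of the kinases that act on these receptors, Jak3, which binds the common gamma chain, rose in the spleen from 130.6 and 154.3 to 704.8 and 784 (2.39 ± 0.12, adjusted p = 8.42e-07). Jak1, which binds Il4ra and Il2rb, fell there from 5499 and 5326 to 2609 and 2737 (-1.02 ± 0.061). Neither was called in BCR-ABL1 cells (Jak3 0.22 ± 0.12, adjusted p = 0.625; Jak1 0 ± 0.061, adjusted p = 1). Stat5b, which acts downstream of IL-2, fell in the spleen (-0.85 ± 0.063). Stat5a (-0.10 ± 0.063, adjusted p = 0.168) and Stat3 (-0.09 ± 0.066, adjusted p = 0.226) did not pass. These directions were not stable: the values reached 0.31 for Stat5b, 1.37 for Stat5a and 0.35 for Stat3 over the alternatives, with the sign reversed and called in 1, 2 and 2 of 20. No tested STAT of this list was called in BCR-ABL1 cells.

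Other chains of the family went separate ways. Il15ra, which presents IL-15 to the chain of Il2rb, rose in the spleen from 136.2 and 134.3 to 520.9 and 535.1 (1.97 ± 0.11). Il7r, a gamma chain partner of early B and T cells, fell from 4579 and 4553 to 32.57 and 40.55, beside the fall in T and NK markers, whose part was not tested. Its difference of -6.97 rests on GFP-positive signals near the floor and ran from -7.12 to -5.26 over the alternatives. It was high on all BCR-ABL1 arrays, between 3729 and 4868, and did not pass there (0.36 ± 0.10, adjusted p = 0.156).

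Of 5 tested feedback genes 4 rose and 1 fell in the spleen, where 44.9% and 33.3% of all probe sets did. Cish, an inhibitor induced by STAT5, rose from 98.68 and 102.4 to 968.8 and 987.5 (3.28 ± 0.084), Socs3 rose by 2.87 ± 0.090 and Socs1 was at least 2.88-fold higher, from the floor. Socs5 fell (-2.49 ± 0.11), and Gata3, the T cell factor, fell at least 9.86-fold to the floor. In BCR-ABL1 cells Cish was high in both fractions (2673 and 2438, and 2229 and 2246; adjusted p = 0.445). The list genes that rose most there were Pim2, a kinase gene induced by STAT5, from 1110 and 1212 to 4383 and 4208 (1.89 ± 0.076), the adaptor gene Irs1 (0.83 ± 0.13) and Socs3 (0.77 ± 0.090). Irs2, the other adaptor of the IL-4 receptor, was the list gene that fell (-0.88 ± 0.15, adjusted p = 0.0223). Leaving out any 1 of the 4 BCR-ABL1 arrays ended the calls of Irs1 and Irs2 (adjusted p up to 0.161 and 0.257), splenic GFP-positive replicate 1 or 2 that of Irs2, and GFP-negative or GFP-positive replicate 1 that of Socs3 (up to 0.0711).

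Irf4, whose product pairs with BATF, rose slightly in BCR-ABL1 cells (0.21 ± 0.034, adjusted p = 0.0203) and fell in the spleen (-0.46 ± 0.034, adjusted p = 5.94e-06). The first call was lost without any 1 of the 4 BCR-ABL1 arrays (adjusted p up to 0.296), and the mean of the Irf4 probe sets in the spleen had the opposite sign (0.22, call lost). Fcer2a, which encodes the IL-4-induced surface protein CD23, set the sources apart more than the GFP fractions. It read 3469 and 3059 in splenic GFP-negative and 3387 and 3444 in splenic GFP-positive cells (0.07 ± 0.13, adjusted p = 0.653), against 32 to 37.72 on the BCR-ABL1 arrays (-6.62 ± 0.13 among GFP-positive arrays, a value that rests in part on the floor). The costimulatory gene Cd86 was at the floor on every BCR-ABL1 array and at least 96.7-fold higher in splenic GFP-positive cells, and the chemokine gene Ccl22 differed by -5.04, a value that rests on BCR-ABL1 signals at or near the floor. Higher in BCR-ABL1 than in splenic GFP-positive cells were Il7r (7.05, resting on splenic signals near the floor), the adaptor gene Gab2 (3.41 ± 0.15) and Irs1 (at least 10.3-fold). Gab2 read 61.73 and 53.38 on the splenic GFP-positive arrays, near the floor, and its difference ran from 1.89 to 3.6 over the alternatives. Among GFP-negative arrays the 3 list genes furthest below the spleen in BCR-ABL1 cells were Fcer2a (-6.60 ± 0.13, in part at the floor), Cd86 (at least 73.1-fold) and Bcl6 (-5.14 ± 0.10). The 3 furthest above it were Cish (4.67 ± 0.084), Lta (3.67 ± 0.15) and Gab2 (3.43 ± 0.15). The value of Gab2 rests on splenic signals of 49.17 and 41.16, near the floor, and ran from 1.87 to 3.63 over the alternatives.

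**Figure D3:**
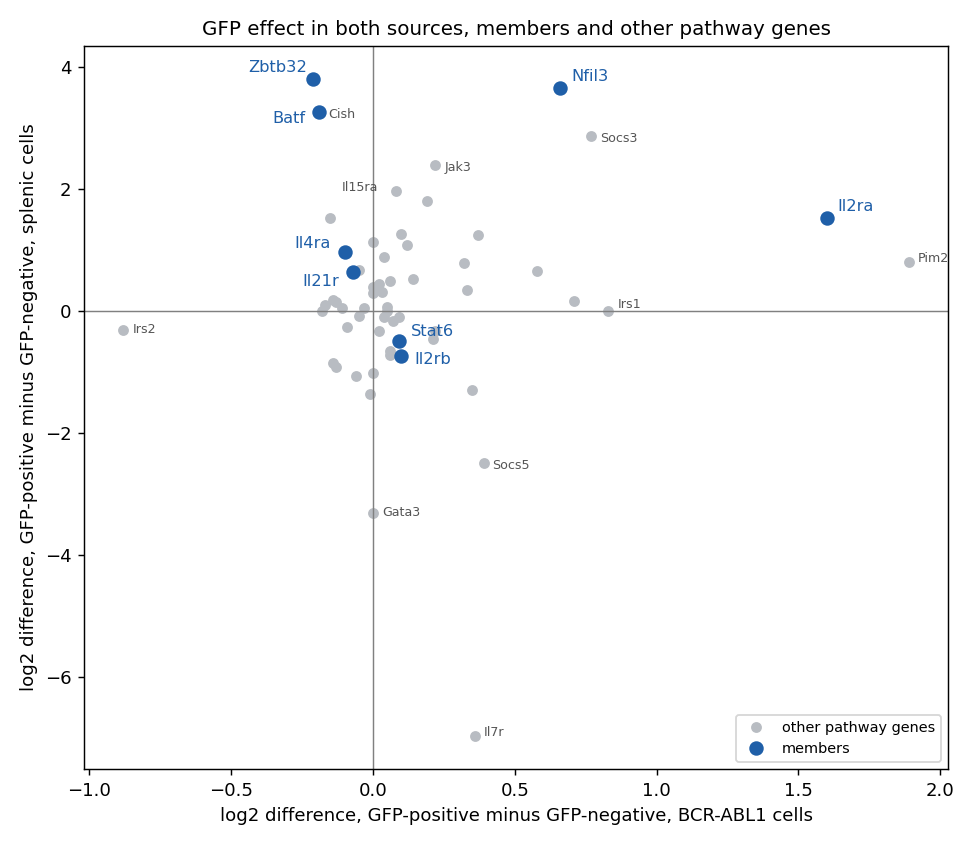
Log2 difference of GFP-positive from GFP-negative arrays in BCR-ABL1 cells (x axis) and in splenic cells (y axis) for the 8 tested genes (blue) and 52 other pathway genes (grey). Il2ra lies at 1.60 on the x axis and 1.52 on the y axis, whereas Zbtb32 and Batf lie near 0 on the x axis and above 3 on the y axis.

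Patterns over the 8 arrays were compared by Pearson correlation of log2 values, as a description, since arrays fall into 4 groups and share the shift of the splenic GFP-negative arrays. Il2ra was most like Rec8 (r = 0.985), Cd47 (0.982) and Lpp (0.978). Il4ra was most like Batf3 (0.999), Ighg3 (0.999) and Cd82 (0.999), and Il2rb most like Satb1, Stx11 and Iglv1 (r of at least 0.999). Nfil3 was most like Rrbp1 (0.998), Amigo2 (0.998) and Ehbp1l1 (0.998), and Zbtb32 most like Otulin, Cdk5r1 and Pbx3 (r of at least 0.997). Batf had Trappc5 (0.996), L3mbtl2 (0.996) and Slc25a38 (0.994), Il21r had Atp11a (0.996), Zfand3 (0.995) and Alcam (0.994), and Stat6 had Nod1 (0.9998), Lpin1 (0.9977) and Mapk11 (0.9977). None of the 8 was among the 3 most alike of another.

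**Figure D4:**
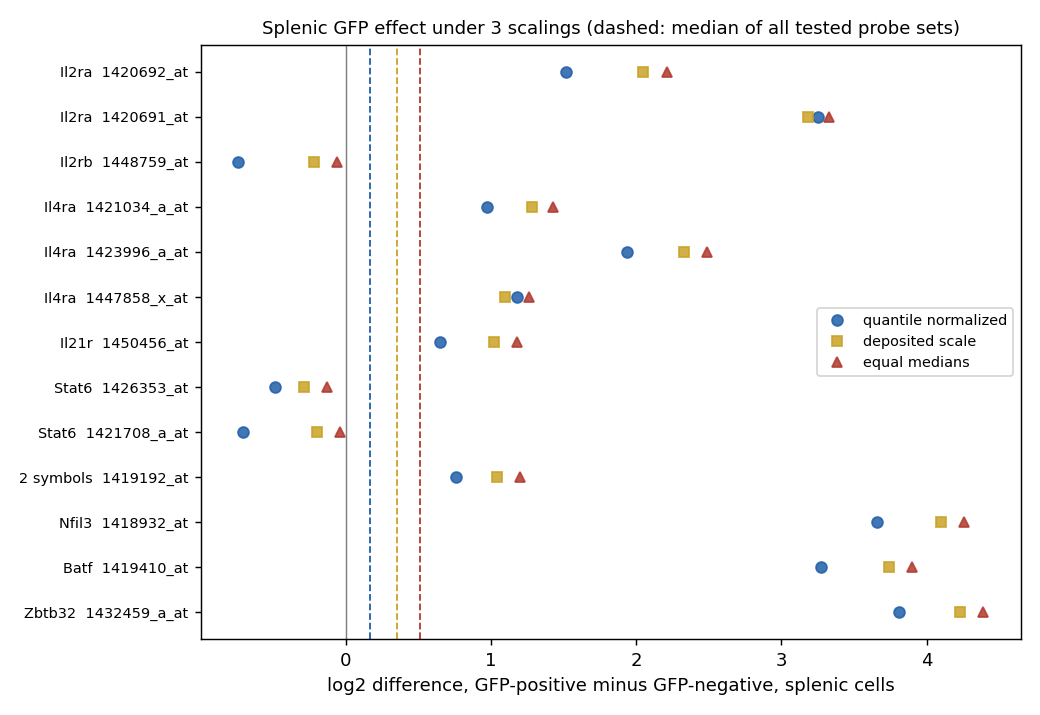
Log2 difference of splenic GFP-positive from GFP-negative arrays (x axis) for the 13 tested probe sets under quantile normalization, on the deposited scale and with equal medians, with the median of all tested probe sets dashed in the same colour. Il2rb and both Stat6 probe sets move towards 0 (from -0.74 to -0.06 for Il2rb), and Nfil3, Batf and Zbtb32 stay above 3 under each scaling.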

How the data were processed

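The authors deposited 1 table of linear signal intensity values, with 45101 probe sets in 8 samples. GCOS 1.3 is named in the submitters' processing notes; the sources used here do not give probe summary or scaling. The members and gene lists were chosen with earlier results of these data known. After 64 control probe sets were left out, 34945 of 45037 had 1 gene symbol, 932 several and 9160 none. Trimmed means of the arrays (2% trimmed) ran from 479 to 596, a ratio of 1.24, so arrays were quantile normalized, floored at 32 and log2 transformed. A filter at the 40th percentile of mean log2 signal (5.67, or 51 units) left 27022 probe sets to test. A limma 3.58.1 model in R 4.3.3 held all 8 arrays (lmFit, eBayes with trend), 1 mean per group, with 4 residual degrees of freedom. Benjamini-Hochberg adjustment ran over all tested probe sets of a contrast, with 0.05 as threshold. The fit was tested on simulated data. Exact permutation of 2 arrays against 2 cannot give a two-sided p below 0.333, so calls rest on the model, and the number of arrays limits precision. Differences against a group at the floor are lower bounds. Named were all members and, of the pathway list, 13 fixed genes where tested and called genes with the 3 largest rises and falls in a contrast, of which a part is printed. Alternatives changed the scaling, floor, filter, variance model, unit of the fit, replicate number as a block, and arrays used. Protein sequences were not used here.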

Additional observations from a re-analysis of the deposited data

Results flagged for a closer look

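For 12 probe sets the GFP effect differed between splenic and BCR-ABL1 cells by limma's interaction test (adjusted p under 0.05, 69.8% of all tested probe sets did). As splenic minus BCR-ABL1 log2 differences, the values were 4.02 for Zbtb32, 3.45 for Batf and 3.0 for Nfil3. The Il4ra probe sets had 2.04 (1423996_a_at), 1.25 (1447858_x_at) and 1.07 (1421034_a_at). Il2ra 1420691_at had 1.81, which rests on splenic GFP-negative signals near the floor. 1419192_at, annotated to 2 symbols, had 0.79 and Il21r had 0.72. Below 0 were Il2rb (-0.84) and both Stat6 probe sets (-0.58 for 1426353_at and -0.77 for 1421708_a_at). On the deposited scale and with equal medians the calls of Il2rb (-0.22 and -0.06) and Stat6 1421708_a_at (-0.29 and -0.14) were lost. That of 1426353_at was kept. The splenic term of each of the 12 holds the GFP-negative arrays with high T, NK and myeloid markers, whose part was not tested.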

How the results depend on the processing

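Over 20 alternatives, 1185 of 1227 values of tested member probe sets kept their side of the threshold. Some uncalled differences near 0 among them changed sign, such as that of Il21r in BCR-ABL1 cells (-0.07, up to 0.03). Of the rest, 39 lost the call and 3 reversed and passed. The 3 were those of the difference in GFP effect between the sources for Il2ra 1420692_at, with 0.50 on the deposited scale, 0.64 with equal medians and 0.86 when its probe sets were averaged, against -0.09. The value of 0.86 takes in 1420691_at, which had 1.81 by itself. The median of all tested probe sets in this contrast was 0.18 in the main fit, 0.36 on the deposited scale and 0.50 with equal medians. Relative to it, 1420692_at stood at -0.27, 0.14 and 0.14. The cause of the change with scaling was not tested. Of the member genes higher in BCR-ABL1 GFP-positive cells (2), 1 was left with the replicate block and with the 4 arrays compared alone, and 1 to 2 without 1 array. Of the 2 lower in the spleen, 1 was left on the deposited scale, 0 with equal medians and 1 with the 60th percentile filter, which drops Il2rb. The count of 2 with a lower GFP effect in the spleen than in BCR-ABL1 cells became 1 in those 3 settings. Of the 2 higher in BCR-ABL1 than in splenic GFP-negative arrays, 1 was left without a filter, without the variance trend and with the 4 arrays alone, and 1 to 2 without 1 array. Over all probe sets 270 were called in BCR-ABL1 cells with the 4 arrays alone, against 756. The brightest probe set of each gene leaves 12223 genes to test in place of 27022 probe sets, so lower counts there do not mean lower shares. Calls numbered 9426 against 21129 for GFP in the spleen and 8439 against 18864 for the difference in GFP effect. Between the sources they numbered 6149 against 11900 among GFP-positive and 9589 against 21322 among GFP-negative arrays. The pathway list had 7 higher and 1 lower in BCR-ABL1 GFP-positive cells, but 4 higher without the variance trend, 3 higher and 0 lower with the 4 arrays alone, 0 lower without a filter, and 2 to 7 higher and 0 to 1 lower without 1 array. With equal medians 33 list genes were higher in splenic GFP-positive cells in place of 20, and 29 had a greater GFP effect in the spleen in place of 17, against 26 on the deposited scale. The labels number the replicates 1 and 2 in each group without saying what the number marks. Deviations of same-numbered arrays correlated by 0.11 in BCR-ABL1 and 0.272 in splenic cells. With the replicate block the adjusted p of Nfil3 in BCR-ABL1 cells was 0.0504, 748 probe sets were called in all, and no other call of a member probe set changed. Signals near the floor, as for Il2rb, Zbtb32 and Nfil3 in BCR-ABL1 cells, limit what differences could be seen there.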
